A study of Mus musculus with 59 samples.

Results

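The comparison set 4 RNA libraries of mouse embryonic stem cells given 4-hydroxytamoxifen (4OHT) for 24 h against 4 untreated libraries sampled at the same time. The 8 libraries, of 59 samples in the series, were taken by the time and treatment in their titles and by no measured value. They came from 2 lines of hybrid 129xC57Bl6 background, with 2 control and 2 4OHT libraries each. The DGCR8 line is labelled Rosa26:CRE, DGCR8 Flox/Flox. The Drosha line is labelled Drosha Flox/Flox, and its label names no Cre. 4OHT was used at 0.5 µM; it is the ligand that switches on tamoxifen-dependent forms of the Cre recombinase, which then removes the DNA between loxP sites. Cells of all groups grew on gelatin in medium with serum and LIF. No line without a floxed allele received 4OHT, so the agent and the loss of the allele cannot be told apart. The labels do not say whether a line is 1 clone or whether the duplicates were separate cultures, so the spread behind each p-value is that between these libraries and may be technical. Title and source name disagreed on the treatment of 4OHT replicate 1 and control replicate 2 in each line, and the titles were followed. The column names and the treatment protocol given with these libraries go with the titles, while the protocol given with some other samples of the series lists the sample numbers that the source names imply.

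Drosha and DGCR8 form the Microprocessor, the nuclear complex that starts microRNA production. DGCR8 binds the hairpin folded within a primary microRNA transcript, and the RNase III enzyme Drosha cuts the hairpin free. Dicer later trims it to the mature microRNA, which guides Argonaute and TNRC6 proteins to messenger RNAs matching its seed. In embryonic stem cells most microRNA comes from a few clusters, above all miR-290-295 and miR-17-92. The Microprocessor also cuts hairpins in the messenger RNA of Dgcr8 itself, which is known to keep DGCR8 in check.

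RNA was depleted of ribosomal RNA and counted per gene over exons, with about 9578090 to 12127800 counts per library. The mitochondrial ribosomal RNA mt-Rnr2 took 10.5% to 14.6% of the counts. Levels are given in CPM, which are counts scaled to a common library total with TMM factors. Expression per kilobase of exon of stem cell markers was 264 to 445 CPM for Pou5f1, 173 to 238 for Sox2, 82.0 to 118 for Nanog and 531 to 809 for Dppa5a over the 8 libraries. Esrrb ran from 63.3 to 101 and Zfp42 more widely, from 32.5 to 305. The summed level of 14 naive pluripotency factors was 2973 to 3374 CPM in the DGCR8 line and 1588 to 1641 in the Drosha line, a difference that was not tested. Of the markers of feeder fibroblasts, which could remain from earlier culture, 11 of 15 were tested and 0 passed the test of edgeR (0 at an unadjusted p below 0.05; DESeq2 called 0). Their summed level ran from 15.5 to 17.7 CPM in controls and 14.5 to 18.7 in 4OHT libraries of the DGCR8 line, and from 54.7 to 70.8 and 62.5 to 68.9 in the Drosha line. Summed over the 8 libraries, the fibroblast genes had 1544 counts for Col1a1, 335 for Thy1, 198 for Col3a1, 73 for Col1a2, 59 for Postn, 6 for Dcn and 1 for Lum. Per kilobase of exon the highest level was 5.55 CPM for Col1a1.

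Primary transcripts and hairpins of microRNAs were prominent among the genes that rose. At 24 h, 103 of 15366 genes tested had risen (0.67%) and 23 had fallen (0.15%) in both lines pooled, at an adjusted p below 0.05 in the quasi-likelihood test of edgeR with the line as a covariate. Among the 93 risen genes that RefSeq places on the mouse genome, 19 were microRNA genes, against 73 of all 14642 tested genes so placed. Of the 19, 10 passed the filter on low counts through the 4OHT libraries alone, so the count of 19 is only a description. A further 22 of the other 74 risen genes (29.7%) held a microRNA hairpin within their bounds. The same was true of 523 of 14569 tested genes other than microRNA genes (3.59%). The list of noncoding primary microRNA transcripts had 7 of 13 tested members risen and 0 fallen, with a median log2 fold change of 0.74 against -0.01 over all genes. Its summed level was 262 to 278 CPM in controls and 602 to 606 in 4OHT libraries of the DGCR8 line, and 659 to 689 and 1187 to 1207 in the Drosha line. The 7 include Mirg and Meg3 of the Dlk1-Dio3 locus, which was near absent from the DGCR8 line. In the Drosha line that locus summed to 497 to 521 CPM in controls and 778 to 791 after 4OHT. The number of calls depended on single libraries. It was 392 risen and 365 fallen without DGCR8 control replicate 2, and 167 and 67 without DGCR8 4OHT replicate 2. In the Drosha line, leaving out control replicate 1 gave 49 and 2, the other control (replicate 2) 69 and 7, 4OHT replicate 1 gave 56 and 9, and 4OHT replicate 2 gave 63 and 10. Leaving out 4OHT replicate 1 of the DGCR8 line gave 50 and 6. Of the genes called, 45 risen and 2 fallen were called in each of the 8 fits that left out 1 library, and all 103 risen and 23 fallen kept their direction in these fits. DESeq2 called 65 of the 103 and gave 37 no adjusted p, since its own filter sets genes with few counts aside; 18 of the 19 risen microRNA genes were among these.

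The hairpins and mature microRNAs that carry this result are shown with RefSeq sequences on the GRCm38.p6 assembly. In the hairpins, capitals mark the mature products on the 5′ and 3′ arms. Mir19b-1 (chromosome 14, 115044305 to 115044391, plus strand) and Mir294 (chromosome 7, 3220641 to 3220724, plus strand) stand for the miR-17-92 and miR-290-295 clusters. Mir1306 (chromosome 16, 18284239 to 18284317, minus strand) lies inside Dgcr8. Mir23a (chromosome 8, 84208518 to 84208592, plus strand) and Mirlet7a-1 (chromosome 13, 48538179 to 48538272, minus strand) are the microRNA genes that fell.
Mir19b-1: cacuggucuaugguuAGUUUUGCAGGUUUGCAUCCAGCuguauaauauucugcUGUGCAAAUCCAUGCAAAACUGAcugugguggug
Mir294: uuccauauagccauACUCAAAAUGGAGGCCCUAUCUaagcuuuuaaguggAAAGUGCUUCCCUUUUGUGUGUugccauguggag
Mir1306: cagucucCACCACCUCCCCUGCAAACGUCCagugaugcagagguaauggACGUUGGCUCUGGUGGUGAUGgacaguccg
Mir23a: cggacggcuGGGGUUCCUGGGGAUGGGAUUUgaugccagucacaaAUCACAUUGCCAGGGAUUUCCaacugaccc
Mirlet7a-1: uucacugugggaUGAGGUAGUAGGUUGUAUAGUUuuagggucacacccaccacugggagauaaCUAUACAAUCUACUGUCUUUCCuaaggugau

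The 36 mature products of the risen microRNA genes that RefSeq lists have 27 different seeds (bases 2 to 8, in capitals), the bases that pair with targets. Of these seeds 22 occur once and 5 are shared. The products shown are a selection from the main clusters, the related cluster on the X chromosome and the fallen genes. The shared seeds CUCAAAC (miR-290a-5p, miR-292a-5p and miR-293-5p) and CUGCAGU (miR-17-3p, miR-20b-3p and miR-106a-3p) are not among them. No mature microRNA was measured. In miR-17-5p, miR-20a-5p, miR-20b-5p and miR-106a-5p the seed is AAAGUGC. The 3′ arms shown for the miR-290-295 cluster share the bases AAGUGC at the start of the seed, the same core shifted by 1 base. Other seeds in miR-17-92 are GUGCAAA of the miR-19 members and AUUGCAC of miR-92a-3p. Among products of the hairpin genes that fell, let-7a-5p has GAGGUAG and miR-23a-3p has UCACAUU. In the miR-290-295 cluster, miR-293-3p, not shown, has the seed GUGCCGC, which begins with the bases GUGC of the core AAGUGC.
miR-17-5p: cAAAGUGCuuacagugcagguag
miR-20a-5p: uAAAGUGCuuauagugcagguag
miR-20b-5p: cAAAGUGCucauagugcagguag
miR-106a-5p: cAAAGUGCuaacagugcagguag
miR-290a-3p: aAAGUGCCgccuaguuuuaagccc
miR-291b-3p: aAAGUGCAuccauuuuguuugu
miR-294-3p: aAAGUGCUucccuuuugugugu
miR-295-3p: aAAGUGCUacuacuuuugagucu
miR-19a-3p: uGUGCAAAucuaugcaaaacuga
miR-19b-3p: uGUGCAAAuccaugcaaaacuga
miR-92a-3p: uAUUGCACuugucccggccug
miR-23a-3p: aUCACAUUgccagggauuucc
let-7a-5p: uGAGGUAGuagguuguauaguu

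Mir17hg, the host transcript of miR-17-92, changed with the smallest p of all genes. Its level was 94.5 and 66.0 CPM in the DGCR8 line controls, 356 and 387 after 4OHT, 56.1 and 58.3 in the Drosha line controls, and 239 and 271 after 4OHT. All 4OHT libraries stood above all controls of both lines, and the log2 fold change was 2.18 (SE 0.10, adjusted p = 4.17e-08). It was 2.21 in the DGCR8 line and 2.16 in the Drosha line, and their difference did not pass the test (adjusted p = 0.993). RefSeq places this long noncoding RNA on chromosome 14 from 115044390 to 115046728, with the hairpin of Mir92-1 inside it and those of the other members less than 5 kb away. All 6 hairpins of the cluster rose (Mir17, Mir18, Mir19a, Mir20a, Mir19b-1 and Mir92-1), with log2 fold changes from 1.88 to 3.71 and a median of 3.42. Of these, Mir17, Mir18 and Mir20a passed the filter on low counts through the 4OHT libraries alone, so that they could be tested only if higher there. Their number supports nothing, and the median that includes them is only a description. Mir19b-1, whose products include one of the oncogenic members of the cluster, had 13 and 11 counts in the DGCR8 line controls, 118 and 165 after 4OHT, 6 and 10 in the Drosha line controls, and 145 and 88 after 4OHT. Its groups did not overlap in either line (log2 fold change 3.71, SE 0.21, adjusted p = 4.89e-07). Among genes tested, 7.11% were higher in all 4OHT libraries than in both controls of their line.

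**Figure D1:**
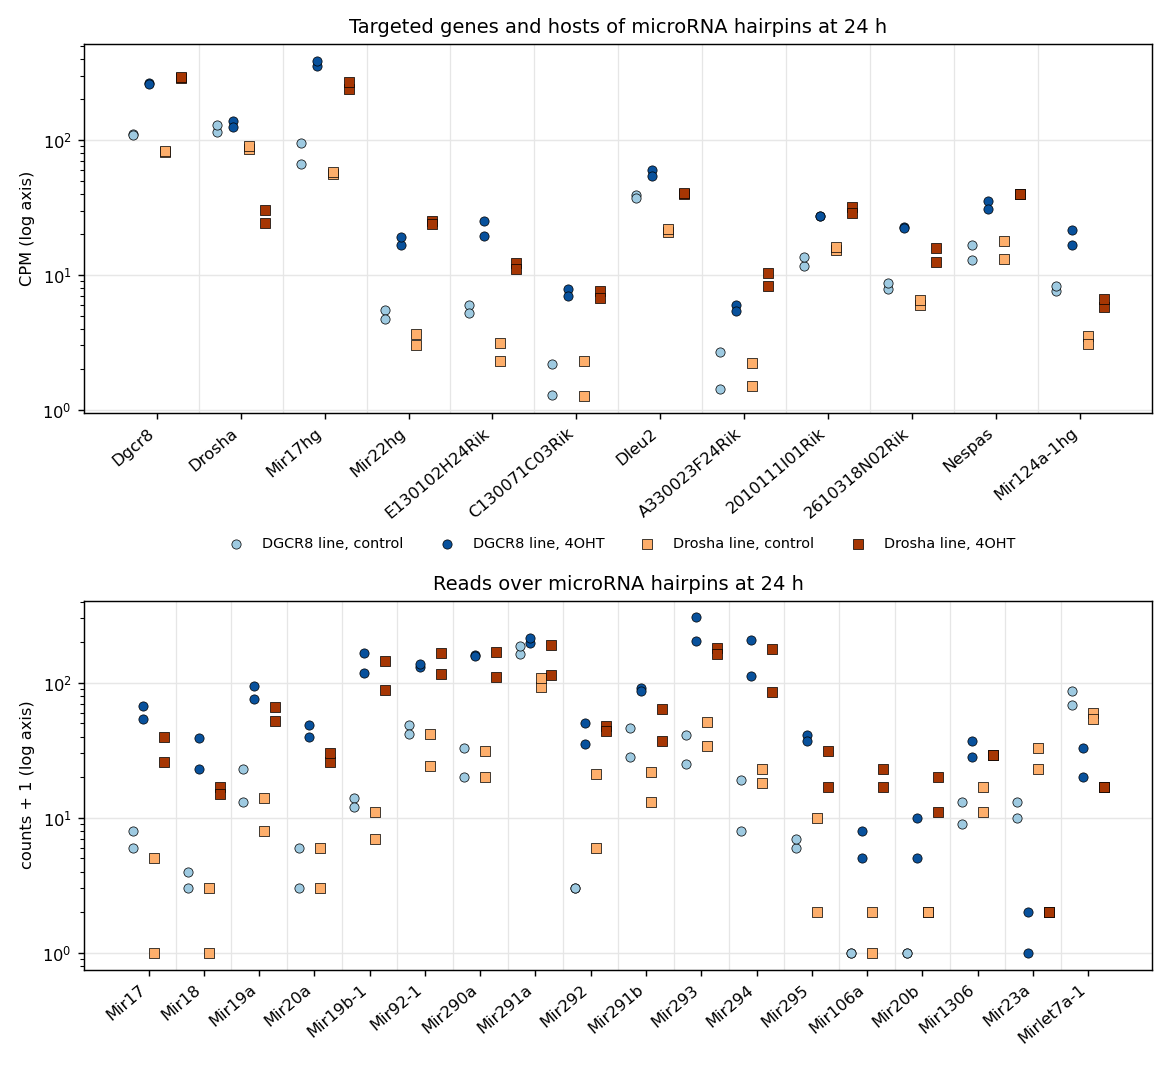
Level of the targeted genes and of 10 risen genes (upper panel, CPM, log axis) in each of the 8 libraries. The lower panel gives counts plus 1 over 18 microRNA hairpins (log axis). Each point is 1 library, coloured by line and treatment. Of the 10 risen genes, Nespas and Mir124a-1hg hold no hairpin in RefSeq, and the others do. Mir17hg stood at 56.1 to 94.5 CPM in controls and 239 to 387 after 4OHT, while Mir23a and Mirlet7a-1 are the hairpins with fewer counts after 4OHT and Mir291a changed least among those of its cluster.

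The miR-290-295 cluster, the main source of microRNA in mouse embryonic stem cells, also rose. Of its 7 tested hairpins on chromosome 7, 6 rose (Mir290a, Mir292, Mir291b, Mir293, Mir294 and Mir295) and the median log2 fold change was 2.55, a value not tested against that of miR-17-92. Mir292 and Mir295 passed the filter through the 4OHT libraries alone, so the number risen and the median that include them are only a description. Mir294, the source of the mature form most used to describe this family, had 18 and 7 counts in the DGCR8 line controls, 112 and 206 after 4OHT, 17 and 22 in the Drosha line controls, and 177 and 85 after 4OHT. The 4OHT libraries were higher in both lines, with no overlap (log2 fold change 3.19, SE 0.29, adjusted p = 4.91e-05). Mir291a did not pass the test. It had 162 and 186 counts in controls and 196 and 215 after 4OHT in the DGCR8 line, and 92 and 107 against 190 and 114 in the Drosha line (log2 fold change 0.44, adjusted p = 0.0953). Its control libraries held more counts than those of any other hairpin of the cluster, and its 4OHT libraries were near the levels of Mir290a and Mir293.

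In the related cluster on the X chromosome, 2 hairpins were called. Mir106a, Mir20b and Mir101a passed the filter on low counts through the 4OHT libraries alone, so their counts are a description. Mir106a had 1 count over the 4 controls and 49 over the 4 4OHT libraries, a ratio of 50.1 with an exact 95% counting interval from 8.59 to 2020. Mir20b had 2 and 42 counts, a ratio of 21.5 (5.59 to 183). Their neighbour Mir363 did not pass the test (log2 fold change -0.47, adjusted p = 0.44), nor did Mir18b (-0.28, adjusted p = 0.709) or Mir92-2 (1.80, adjusted p = 0.0559). Hairpins of 1 cluster stood on both sides of zero. Mir101a, within the risen noncoding RNA E130102H24Rik, had 2 counts in controls and 38 after 4OHT, a ratio of 19.4 (5.02 to 166), and was called in 3 of the 8 fits that left out 1 library. In all, 73 of 1065 annotated microRNA genes passed the filter on low counts, and 19 rose and 2 fell. Of the 19, 10 would not have passed the filter in the control libraries alone, as was so for 19 of all 103 risen genes and 0 of the 23 fallen.

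The fallen microRNA genes were Mir23a and Mirlet7a-1. Mir23a, the first hairpin of the miR-23a, miR-27a and miR-24 cluster, had 9 and 12 counts in the DGCR8 line controls, 0 and 1 after 4OHT, 32 and 22 in the Drosha line controls, and 1 and 1 after 4OHT. Over the groups this was 75 against 3 counts, a ratio of 0.0409 with a counting interval from 0.00826 to 0.124 (adjusted p = 0.000483). Mirlet7a-1, a source of the differentiation-linked let-7a, had 86 and 68 counts in the DGCR8 line controls, 32 and 19 after 4OHT, 59 and 53 in the Drosha line controls, and 16 and 16 after 4OHT. Every 4OHT library was below every control (log2 fold change -1.65, SE 0.22, adjusted p = 0.00151). Among genes tested, 6.14% were lower in all 4OHT libraries than in both controls of their line. The files give counts over the annotated hairpin, so uncut hairpins, cut hairpins and the flanking transcript are not separated.

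The RNA of the targeted genes was read in every library. Drosha stood at 85.8 and 90.6 CPM in controls and 30.1 and 24.4 after 4OHT in the Drosha line, and at 115 and 129.6 in controls and 138 and 126 after 4OHT in the DGCR8 line. It fell in the Drosha line, where 0.026% of all genes fell in the fit of all 4 groups (log2 fold change -1.69, adjusted p = 4.27e-05) and had 0.10 in the DGCR8 line (adjusted p = 0.784). This was the 1 gene of 15366 (0.00651%) whose effect differed between the lines, with a difference of -1.79 (SE 0.16, adjusted p = 0.00287); DESeq2 called 3, and 798 genes had an unadjusted p below 0.05. Dgcr8 rose in both lines, from 110.3 and 109.5 to 266 and 259.8 CPM in the DGCR8 line and from 81.2 and 82.3 to 289.8 and 295 in the Drosha line (pooled log2 fold change 1.55, SE 0.10, adjusted p = 1.69e-06). Counts are per whole gene, so removal of the floxed Dgcr8 exons cannot be read from them. The hairpins Mir1306 and Gm24572 (the gene of miR-3618) lie inside Dgcr8 and share its reads where they overlap. Mir1306 went from 8 and 12 counts to 27 and 36 in the DGCR8 line and from 10 and 16 to 28 and 28 in the Drosha line (log2 fold change 1.42, adjusted p = 0.0216), and was called in 5 of the 8 fits that left out 1 library.

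**Figure D2:**
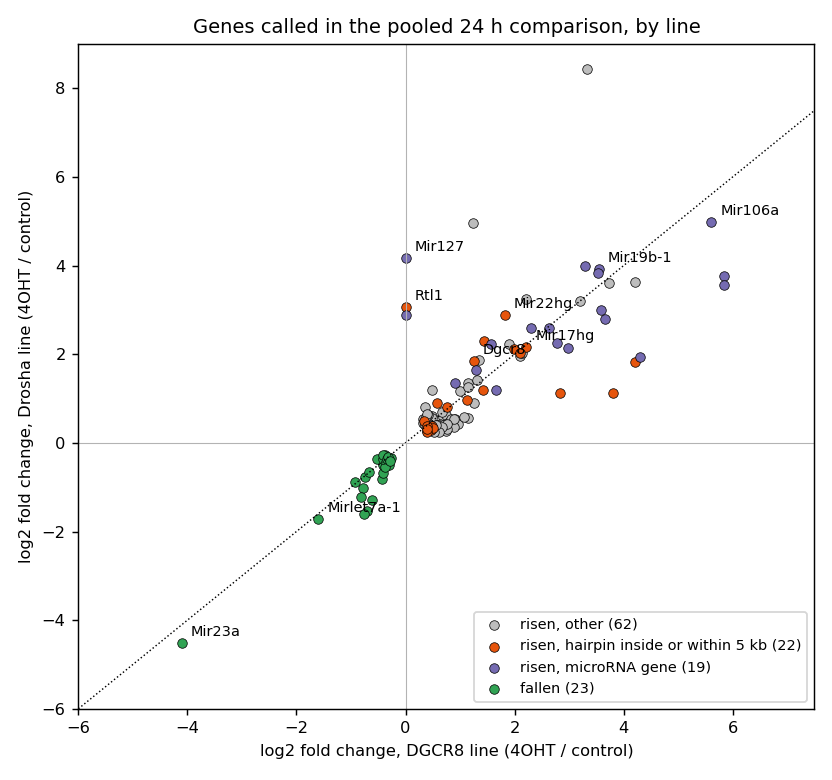
Log2 fold change of the 126 genes called in the pooled comparison, in the DGCR8 line (x axis) and the Drosha line (y axis), coloured by class; the dotted line marks equal change, and genes without a RefSeq position count as other. Mir17hg lies at 2.21 and 2.16, and Mir23a lies apart at the lower left, while Rtl1 and Mir127, which had almost no counts in the DGCR8 line, lie on its zero line.

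Other hosts of hairpins rose in both lines with groups apart. Mir22hg, host of miR-22, went from 5.50 and 4.71 to 16.7 and 19.3 CPM in the DGCR8 line and from 3.64 and 3.00 to 25.1 and 23.9 in the Drosha line (log2 fold change 2.35, SE 0.18, adjusted p = 9.98e-06). E130102H24Rik, which holds Mir101a, went from 5.94 and 5.26 to 25.1 and 19.5 and from 3.11 and 2.29 to 12.2 and 11.1 (2.05, SE 0.14, adjusted p = 2.25e-06). C130071C03Rik, the noncoding host of Mir9-2, rose by 2.06, and A330023F24Rik, host of Mir29b-2 and Mir29c, by 1.91. Dleu2, the noncoding host of Mir16-1 that is known for its loss in chronic lymphocytic leukaemia, rose by 0.74, and Mir124a-1hg, named for a neuronal microRNA although RefSeq places no hairpin within its bounds, rose by 1.11. All of these were among the 45 genes called whichever library was left out. The host of miR-100, let-7a-2 and miR-125b-1 (3110039I08Rik, named Mir100hg by RefSeq) had a log2 fold change of 1.65 and was called in 2 of the 8 such fits.

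The list of protein-coding hosts of intronic microRNAs had a smaller median change than that of noncoding transcripts, a difference that was not tested. Of its 29 tested genes, 0 rose and 0 fell, 19 were higher, and the median log2 fold change was 0.11. At an unadjusted p below 0.05, 5 were higher, and DESeq2 called 1, Mcm7. Mcm7, a subunit of the replicative helicase that hosts the miR-106b cluster, had 0.28 (adjusted p = 0.0559). Outside that list, 13 risen genes annotated as protein-coding held a hairpin, with log2 fold changes from 0.33 to 2.89. In 12 the groups were apart in both lines, as 7.11% of all genes tested were in this direction. The 13 were chosen by a test on the same values, so this supports nothing further. Of all tested genes other than microRNA genes 3.59% held a hairpin, and the share among protein-coding ones was not counted. Risen protein-coding genes had a median exon length of 8562 bases, against 3818 for all tested. The 13 include Dgcr8, Rtl1, Ankrd52 and Tnrc6b, described with their own groups, and Tmem245, which holds Mir32 (0.42, adjusted p = 0.0382). A further one was 2610318N02Rik, which holds Mir130b and Mir301b (from 7.81 and 8.76 to 22.5 and 22.3 CPM, and from 5.95 and 6.47 to 15.7 and 12.5; log2 fold change 1.31, SE 0.12). Another was 2010111I01Rik, an aminopeptidase gene (Aopep in RefSeq) that holds Mir23b, Mir27b, Mir3074-1 and Mir24-1 (1.04, SE 0.09). For 2610318N02Rik and 2010111I01Rik the adjusted p was 4.58e-05, and both were called in every fit that left out 1 library.

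Transcripts of the imprinted Dlk1-Dio3 locus on chromosome 12 were near absent from the DGCR8 line. Their summed level was 1.10 to 2.30 CPM in its controls and 2.23 to 2.40 after 4OHT, against 497 to 521 and 778 to 791 in the Drosha line. Mirg, a long noncoding RNA that holds 10 hairpins, stood at 37.3 and 34.0 CPM in the Drosha line controls and 127 and 124 after 4OHT, with 0 to 0.304 CPM in the DGCR8 line. Its pooled log2 fold change of 1.83 (adjusted p = 2.25e-06) therefore rests almost wholly on the 4 libraries of the Drosha line. Meg3, the noncoding RNA of the maternal allele, went from 80.4 and 101 to 214 and 185 CPM there. Rtl1, a retrotransposon-derived gene that several microRNAs lie against, went from 1.6 and 1.58 to 12.8 and 13.9 CPM. Rian, a further noncoding RNA of the locus, stood at 376 and 383 in controls and 436 and 454 after 4OHT and did not pass the pooled test (0.21, adjusted p = 0.311). Mir127 and Mir3070a lie within the bounds of Rtl1; since the counting strand is not given in the sources used here, their reads and those of Rtl1 cannot be told apart.

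Genes of the silencing machinery rose in part. Tnrc6a, which links Argonaute to the enzymes that remove poly(A) tails, went from 93.6 and 108 to 199 and 178 CPM in the DGCR8 line and from 108 and 111 to 166 and 155 in the Drosha line. The groups were apart in both lines (log2 fold change 0.73, SE 0.08, adjusted p = 0.000384). Its paralogue Tnrc6b rose by 0.42 (adjusted p = 0.0422) and Ago1, an Argonaute, by 0.53 (adjusted p = 0.0239); they were called in 3 and 5 of the 8 fits that left out 1 library, Tnrc6a in all. In the list of 24 tested processing and silencing genes these were the 3 that rose in edgeR, where 18 were higher, 0 fell (1 lower at an unadjusted p below 0.05) and the median was 0.09. DESeq2 called 5 as risen, the same 3 with Ago2 and Ago3, and 0 as fallen. In edgeR Ago3 had 0.34 (adjusted p = 0.0551). At 48 h the same 3 genes passed the test with 1.00, 0.60 and 0.96, in libraries that had no part in choosing them.

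Among other risen genes, the 45 called whichever library was left out included protein-coding genes with smaller changes. Ankrd52, a regulatory subunit of the phosphatase that acts on Argonaute, went from 15.1 and 13.7 to 25.0 and 24.0 CPM in the DGCR8 line and from 22.9 and 25.6 to 43.5 and 41.3 in the Drosha line (log2 fold change 0.79, SE 0.09, adjusted p = 0.000236). It also holds the hairpins Mir6914 and Mir6915. Egr1, a zinc finger factor of the immediate early response, went from 19.6 and 19.6 to 42.4 and 44.8 CPM and from 7.81 and 7.58 to 11.8 and 11.0 (0.91, SE 0.12). It was the 1 member of 18 tested immediate early genes that rose in edgeR, while 13 were lower, 0 fell (6 lower at an unadjusted p below 0.05; DESeq2 called 1 as fallen) and the list median was -0.16. Mdm4, an inhibitor of p53, rose by 0.47, the muscle protein gene Ttn by 0.64, the kinase gene Uhmk1 by 0.70, the calcineurin regulator Rcan3 by 0.70 and Adam23 by 0.55. The gene identifier ENSMUSG00000082697, which has no symbol, stood at 0.355 and 5.92 CPM in the Drosha line controls and 41.5 and 162 after 4OHT, and at most 0.304 CPM in the DGCR8 line. Neat1, the RNA scaffold of paraspeckles, went from 106 and 109.9 to 145 and 129.5 CPM and from 92.0 and 108 to 189 and 159 (0.58, adjusted p = 0.0118), a call lost without either control of the Drosha line (highest adjusted p = 0.0711).

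Small RNA genes and genes of ribosomal proteins were among those that fell. Of the 21 fallen besides Mir23a and Mirlet7a-1, Rpl7a, Rpl39 and Rpl14 encode ribosomal proteins, Snrpd2 a core spliceosomal protein, Ndufc2 a subunit of respiratory complex I and Phb prohibitin. Rpl7a went from 375 and 320 to 255 and 258 CPM in the DGCR8 line and from 328 and 281 to 200.1 and 147 in the Drosha line (log2 fold change -0.62, SE 0.10, adjusted p = 0.0115). Its call was lost without Drosha control replicate 1 (adjusted p = 0.0645). The small nucleolar RNA gene Gm22422 went from 196 and 235 to 133 and 112 and from 101 and 85.7 to 56.4 and 22.1 (-1.01, adjusted p = 0.0259), and was called in 5 of the 8 fits that left out 1 library. Of all 15366 genes tested, 0.15% fell and 7828 were lower. Of 82 ribosomal protein genes tested, 3 fell, 0 rose and 65 were lower (median -0.17). At an unadjusted p below 0.05, 21 were lower and 0 higher, and DESeq2 called 6 as fallen. Of 54 replication-dependent histone genes, 1 fell (Hist1h2bg), 0 rose and 53 were lower (median -0.28). Here 22 were lower and 0 higher at an unadjusted p below 0.05, and DESeq2 called 5 as fallen. The histone median was -0.15 in the DGCR8 line and -0.51 in the Drosha line. Of 99 small nucleolar and Cajal body RNAs, 0 were called in either direction, 82 were lower, 20 were lower and 2 higher at an unadjusted p below 0.05, and DESeq2 called 3 as fallen. Their median was -0.32, and -0.10 without DGCR8 control replicate 1. Genes with short exons were lower in general, with a median of -0.25 under 300 bases and -0.15 from 300 to 1000. Whether these 3 lists differ from other genes of their exon length was not tested.

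Exon length moved with the change. The median log2 fold change was -0.25 for the 497 tested genes under 300 bases of exon, -0.15 from 300 to 1000 bases, -0.10 from 1000 to 2000, -0.03 from 2000 to 4000, 0.05 from 4000 to 8000 and 0.13 for the 1507 genes of 8000 bases or more. The order was the same in both lines. Genes under 300 bases took 1.25% and 0.750% of the counts in the DGCR8 line controls against 0.693% and 0.980% after 4OHT, and 0.891% and 0.897% against 0.869% and 0.517% in the Drosha line. The highest share was that of DGCR8 control replicate 1. Without DGCR8 control replicate 1 the median of the shortest class was -0.05 and without DGCR8 4OHT replicate 1 it was -0.16, while that of the longest class ran from 0.10 to 0.17 whichever library was left out. Of the longest class 39 genes rose and 0 fell, and the median exon length of protein-coding genes was 8562 bases for the 58 risen, 1434 for the 13 fallen and 3818 for all tested. Genes of 8000 bases or more took 15.2% and 17.1% of the counts in the DGCR8 line controls against 18.6% and 16.6% after 4OHT, and 16.9% and 18.1% against 19.2% and 17.8% in the Drosha line, so these shares overlapped. With the trend over exon length taken out as an offset, an alternative chosen after seeing the data, 73 genes rose and 11 fell, and 65 and 10 of these were called without it. The part of RNA fragmentation or of library preparation in the trend was not tested.

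**Figure D3:**
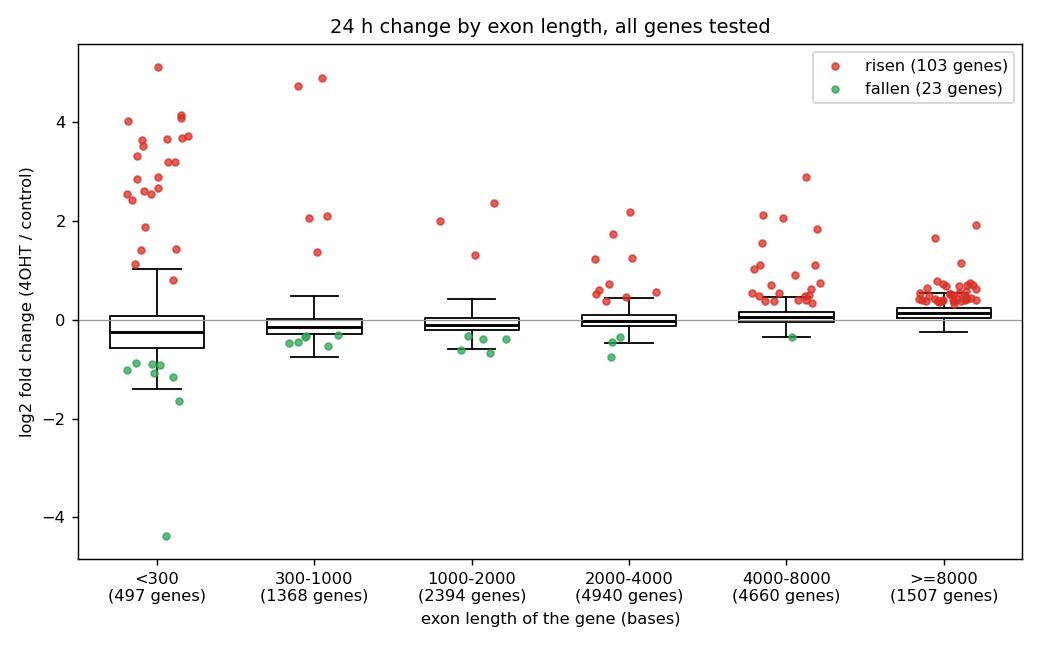
Log2 fold change at 24 h (y axis) of all 15366 genes tested by exon length in bases (x axis); boxes span the quartiles with the median as a line, whiskers reach 1.5 interquartile ranges, and points are the called genes. Class medians run from -0.25 under 300 bases to 0.13 at 8000 bases or more, and risen genes lie mostly in the shortest class, where microRNA genes are, and in the 2 longest.

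Reported targets of the miR-290 family had not passed the test at 24 h. Of 21 such genes, which include Lats2, Arid4a, Arid4b and Mbd2, 0 rose and 0 fell, while 18 were higher and the median log2 fold change was 0.14; 8 were higher at an unadjusted p below 0.05, and DESeq2 called 3. Arid4b, a chromatin factor that binds the retinoblastoma protein, had 0.27 (SE 0.06, adjusted p = 0.0788). The same list had 12 of 21 risen at 48 h, with a median of 0.34, where 6% of all genes tested had risen and 2.56% had fallen. It had 12 risen at 96 h, with a median of 0.73, where 8.03% had risen and 4.91% had fallen. For reported targets of the miR-17 family and let-7, 0 of 20 were called at 24 h (median 0.09; 4 higher and 4 lower at an unadjusted p below 0.05; DESeq2 called 3), and 6 had risen and 2 had fallen at 48 h. Rb1, the retinoblastoma protein, had 0.44 at 24 h (adjusted p = 0.0813), 0.88 at 48 h and 1.53 at 96 h.

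Targets of p53 differed from the primary transcripts in when they passed the test. At 24 h 0 of 25 had risen or fallen (median 0.07; 5 higher and 1 lower at an unadjusted p below 0.05; DESeq2 called 0). At 48 h 11 had risen (median 0.41), where 6% of all genes had, and at 96 h 9 had (median 0.30), where 8.03% had. Over the 16 libraries of both times, 28 of 15744 genes (0.178%) had a higher effect at 48 h than at 24 h and 0 a lower one; DESeq2 called 75, and 1692 had an unadjusted p below 0.05. The p53 targets Cdkn1a, an inhibitor of cyclin-dependent kinases, Btg2, Ccng1, Perp, Phlda3 and Trp53inp1 were among the 28. Btg2, an antiproliferative gene, had log2 fold changes of 0.19 at 24 h and 1.00 at 48 h (difference 0.81, SE 0.10, adjusted p = 0.00442). Cdkn1a had -0.02 and 0.92 (difference 0.99, SE 0.17, adjusted p = 0.033). Leaving out 1 library gave 28 without control replicate 1 of the DGCR8 line at 48 h and 6 to 19 without any other of the 16 libraries, so the count, though not its direction, rests on each of them.

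**Figure D4:**
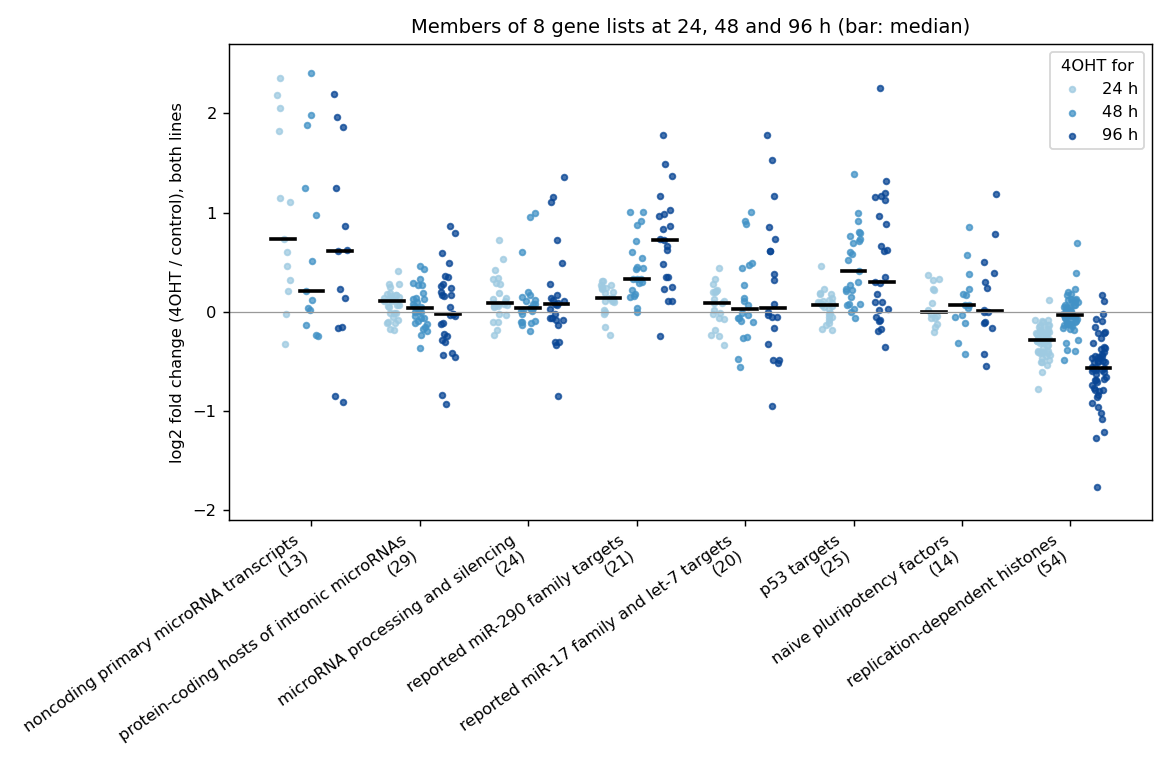
Log2 fold change (y axis, both lines pooled) of the tested members of 8 gene lists (x axis, number tested in brackets) after 24, 48 and 96 h of 4OHT; points are genes and bars their median. The miR-290 family targets have medians of 0.14, 0.34 and 0.73 and the p53 targets 0.07, 0.41 and 0.30. Those of the noncoding primary transcripts are 0.74, 0.21 and 0.62.

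The genes called at 24 h were read again at the later times, in libraries that did not choose them. Of the 103 risen genes, 102 were tested at 48 h, 101 of them changed in the same direction and 86 passed the test as risen, against 6% of all genes. At 96 h, with 1 4OHT library in the Drosha line whose spread is taken from the other groups, 98 kept the direction and 75 passed. Their median log2 fold change was 0.73 at 24 h, 0.86 at 48 h and 1.11 at 96 h. Of the 23 fallen genes, 22 kept the direction at 48 h and 2 passed, and 16 and 2 did so at 96 h, with medians of -0.54, -0.21 and -0.25. Mir17hg had 2.18 at 24 h and 1.98 at 48 h, and Tnrc6a at 0.73, 1.00 and 1.11. Mirlet7a-1 had -1.65, -1.11 and -0.52, and Rpl7a -0.62, -0.30 and -0.25.

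Chromatin libraries of the same series gave a separate readout at these loci. They came from untreated stem cells with Rosa26:BirA and a FLAG/Avi tag on DGCR8, DROSHA or DICER, crosslinked with DSG, and were counted in 5 kb windows; each protein had 1 library, so no test was made, and the exact 95% intervals cover counting error only. The window of Mir293, Mir294 and Mir295 had 27978 counts in the DGCR8 precipitate and 78 in the parental input, a log2 ratio per total count of 7.79 (7.49 to 8.15). In the Drosha precipitate the ratio was 6.59 (6.28 to 6.95) and in that of Dicer, the cytoplasmic enzyme, -0.98 (-1.45 to -0.51). Mir17hg had 5.30 (5.09 to 5.54) with DGCR8 and 3.92 (3.70 to 4.16) with Drosha. The fallen Mirlet7a-1 had 4.71 (4.17 to 5.46) and 4.05 (3.47 to 4.81), and the fallen Mir23a 2.41 (2.22 to 2.62) and 0.48 (0.19 to 0.77). Risen microRNA genes also included some at or below input, with DGCR8 ratios of -0.47 for Mir127, -1.01 for Mir3070a and 0.63 for Mir1306 and Gm24572, which share a window.

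Over whole gene bounds, most other risen genes were near input. Each ratio summed all windows that a gene touched, 1 for a called microRNA gene but 17 for Dleu2 and 149 for Tenm4. A signal at 1 hairpin can therefore be diluted in a long host. Dleu2 had a DGCR8 ratio of 1.28 and its hairpin Mir16-1 had 3.07, while E130102H24Rik had 0.60 and Mir101a inside it 1.49. Whether DGCR8 lay at the hairpins of the hosts was not tested. A DGCR8 ratio over 2 on the log2 scale was found at 66 of 14468 tested genes with enough input (0.456%). It was found at 14 of the 19 risen microRNA genes, which lie in 4 windows, at both fallen ones and at 6 of the 51 that were not called. Of the risen hosts it was found at 1 of 22 (Mir17hg), and of the 52 other risen genes at 1 (Mir124a-1hg). Mir22hg had 1.48 and Dgcr8 0.45. The median over the 74 risen genes other than microRNA genes was 0.12 for DGCR8 and 0.18 for Drosha, against 0.20 and 0.18 over the 3617 genes with the highest RNA level and -0.08 and -0.14 over all 14468. With the input of the DGCR8 line in place of the parental one, the DGCR8 median over these 74 risen genes was 0.20 in place of 0.12.

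**Figure D5:**
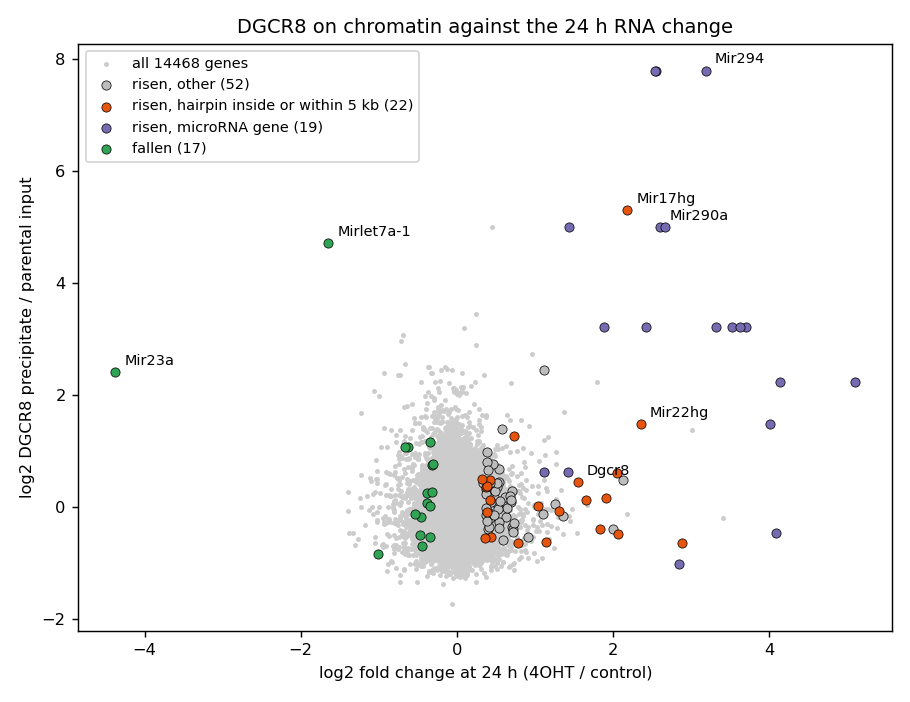
Log2 ratio of the DGCR8 precipitate to the parental input (y axis, 1 library each) against the log2 fold change at 24 h (x axis) for 14468 tested genes (small grey points), with called genes coloured by class. Genes in 1 window share a y value, and longer genes are summed over all windows that they touch. MicroRNA genes of the miR-290-295 and miR-17-92 clusters reach 3.21 to 7.79, and most other risen genes lie near 0.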

How the data were processed

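Per the labels' protocols, total RNA was depleted of ribosomal RNA with Ribozero and made into ScriptSeq v2 libraries; per the submitters' processing notes, reads were aligned with Bowtie to mm10. Of the counting strand, annotation and aligner version, none is given in the sources used here. Authors' values are raw: the authors deposited read counts per gene for RNA, and counts per 5 kb window for chromatin; 1 unmatched chromatin column was not used. Of 39017 gene identifiers, 37607 had a symbol, and positions came from RefSeq (GRCm38.p6).

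Counts were tested with edgeR 4.0.16 (R 4.3.3): TMM, filterByExpr by group, the quasi-likelihood F test with line and treatment, and Benjamini-Hochberg adjustment over all 15366 genes at 0.05. Lines were compared in a fit with 1 coefficient per group, times in such a fit over both times, and 48 h and 96 h were fitted separately. CPM are TMM-scaled; SE is the log2 fold change over the root of F. On simulated data with the 24 h libraries' depths and 15160 genes, 45 of 67 genes changed 1.5-fold, 55 of 67 changed 2-fold and 66 of 66 changed 4-fold were recovered. Changes were planted only in genes with a mean of at least 20 counts, so recovery at hairpins with fewer counts was not tested. Chromatin ratios are log2 of precipitate over parental input per total count, with counts summed over all windows that a gene touches. They have a pseudocount of 1 and cover genes with at least 20 input counts. Same-numbered control and 4OHT libraries did not deviate in the same direction (correlations of -0.56 in the DGCR8 line and -0.08 in the Drosha line), so no block was used.

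The rule for named genes took Drosha and Dgcr8, in each direction the 15 called genes of largest fold whose groups were apart, 4 members of each list by smallest p, and 5 for each difference between lines or times. The hosts of hairpins and other genes called whichever library was left out were named after their values were seen. Members and lists were chosen with earlier results of these data known. Alternatives were other normalisations, filters, designs, DESeq2 1.42.0 and each library left out.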

Additional observations from a re-analysis of the deposited data

Results flagged for a closer look

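The effect of 4OHT on Drosha differed between the lines by the interaction test, with a log2 difference of -1.793 (Drosha line minus DGCR8 line); the gene is the one floxed in the first of them.

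The effect at 48 h differed from that at 24 h, by the test of the difference over the 16 libraries of both times, for 9530068E07Rik (0.9201), Btg2 (0.8063), Rragd (0.7427), Perp (0.6971) and Ccng1 (0.6458), given as log2 differences (48 h minus 24 h). All of these were larger at 48 h. Rragd encodes a GTPase that carries amino acid signals to mTORC1, and Perp a membrane protein that p53 induces.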

How the results depend on the processing

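The direction of the 126 called genes did not depend on any library, but the number of calls did. With 103 risen and 23 fallen in the reported fit, DESeq2 gave 195 and 104, no filter on low counts 380 and 362, no line covariate 10 and 0, the DGCR8 line alone 12 and 0, and the Drosha line alone 426 and 322. A fit of all 23 floxed libraries gave 3 fallen and the exon length offset 11 fallen. Leaving out 1 library gave 49 to 392 risen and 2 to 365 fallen. With the replicate number as a block, 46 rose and 9 fell. The deviations of same-numbered control and 4OHT libraries had correlations of -0.56 in the DGCR8 line and -0.08 in the Drosha line. In the DGCR8 line they thus went in opposite directions, which the reported fit leaves in its spread. With the numbers crossed in the DGCR8 line, a setting added after seeing the data, 454 rose and 365 fell. The share of risen among called genes was 81.7% here, 65.2% with DESeq2 and 51.2% without the filter. For genes whose 24 h effect differs between the lines (1), DESeq2 gave 3, no filter on low counts 24, the replicate block 0 and leaving out 1 library 0 to 4. For genes whose 48 h effect differs from the 24 h effect (28), DESeq2 gave 75, all 23 floxed libraries 6 and leaving out 1 library 6 to 28. The cause was not tested. For the 24 h genes at 48 h and 96 h, 86 risen genes passed at 48 h, and 70 to 91 did so when 1 library was left out. The median for DGCR8 precipitate over input was taken over the 74 risen genes other than microRNA genes. It was 0.12, 0.20 against the input of the DGCR8 line and 0.11 with a pseudocount of 5. Depth limits the hairpins of Mir18, Mir106a, Mir20b and Mir101a, which had at most 38 counts in any library.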

Other observations

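Pluripotency genes moved little at 24 h. Of 14 naive factors 0 were called (5 higher and 2 lower at an unadjusted p below 0.05; DESeq2 called 3 as risen: Tbx3, Klf2 and Tfcp2l1), with a median log2 fold change of 0.00, and of 10 core factors 0 were called (2 lower at an unadjusted p below 0.05; DESeq2 called 0), with a median of -0.04. Klf2, a factor of the naive state, had 0.37 at 24 h (adjusted p = 0.131), 0.86 at 48 h and 1.19 at 96 h. Of 11 formative and primed genes 0 were called (2 lower at an unadjusted p below 0.05; DESeq2 called 0), and 2 had fallen at 48 h, where 2.56% of all genes tested had, and 5 at 96 h, where 4.91% had.

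Metabolic and stress lists leaned lower without calls. Of 20 hypoxia and glycolysis genes 17 were lower (median -0.15; 6 lower and 1 higher at an unadjusted p below 0.05; DESeq2 called 2 fallen and 1 risen), and of 18 genes of the integrated stress response 14 were lower (median -0.14; 4 lower at an unadjusted p below 0.05; DESeq2 called 0). Of 24 cholesterol synthesis genes 20 were lower (median -0.09; 5 lower at an unadjusted p below 0.05; DESeq2 called 0). Aldoa, a glycolytic aldolase, had -0.28 (adjusted p = 0.0721) and Slc2a1, a glucose transporter, -0.25 (adjusted p = 0.0725). At 96 h 7 of the 20 hypoxia and glycolysis genes and 8 of the 18 stress response genes had fallen, where 4.91% of all genes tested had fallen.

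Markers of other lineages gave 0 calls in edgeR and in DESeq2. Of 9 neuroectoderm markers 6 were higher (median 0.11), of 13 endoderm markers 6 (median -0.03; 1 higher at an unadjusted p below 0.05), of 6 mesoderm markers 2 (median -0.02) and of 7 trophectoderm markers 2 (median -0.11); the other lists had 0 at an unadjusted p below 0.05. Of 16 genes of the mitochondrial genome 12 were higher (median 0.07; 3 higher at an unadjusted p below 0.05) and 0 were called by either tool. Of 11 interferon response genes 3 were higher, with 0 calls by either tool and 0 at an unadjusted p below 0.05. Of 12 FGF-ERK feedback genes Egr1 alone was called, while 4 were lower at an unadjusted p below 0.05 and DESeq2 called 1 as fallen.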
